A study of Mus musculus with 19 samples.

Results

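Serpins are a family of proteins that mostly inhibit serine proteases. An inhibitory serpin offers a reactive loop as bait, the protease cuts it, and the serpin then changes shape and traps the enzyme in a covalent complex. Some members have lost this activity and act as chaperones or signalling proteins. In muscle, serpins come from fibers, from fibroblasts of the connective tissue, from blood vessels and from immune cells. The serpins described here are Serpinb1a and Serpinb6a, which act inside cells, Serpina3n, Serpine2, Serping1 and Serpinf1, which are secreted, and Serpinh1, which stays in the endoplasmic reticulum. These 7 genes were picked by name, and every probe set of the array annotated to only 1 of them was used. A probe set is a group of short oligonucleotides on the array that reads 1 transcript or a few. Of the 7 genes, 6 had a probe set of their own, with 9 probe sets in all, among 40 serpin genes and 18194 genes of the table. Serpine2, an inhibitor of thrombin and urokinase also known as protease nexin 1, had no probe set annotated to it alone in the table used here, and its level is not analysed here. The genes were chosen with the HSALR against wild-type result of these same samples known, so their values in that comparison are given as a description, with no test.

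RNA of the extensor digitorum longus (EDL), a fast-twitch hindlimb muscle, was hybridised to Affymetrix arrays. The HSALR group held 10 samples of the transgenic HSALR line 20 b and the wild-type group held 9 samples, all from FVB mice at 19 weeks of age. HSALR mice express, from the human skeletal actin promoter and so in skeletal muscle, an actin transcript with a long expanded CUG repeat, and they serve as a model of the muscle disease in myotonic dystrophy. All HSALR samples carry 1 transgenic line. Each sample had 1 array, and the labels do not say whether samples came from different animals, so the spread between samples may be partly technical. The number of arrays limits the precision of each value.

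Of the arrays' values, some facts touch the serpins. The median deposited signal of an array lay between 39.7 and 71.9. On the log2 scale over the tested probe sets, HSALR 5 was the dimmest array at 7.30, and HSALR 8 at 7.96, HSALR 10 at 7.95 and wild type 1 at 7.95 were the brightest. HSALR 9 and 10 stood apart from the other 8 HSALR samples in the connective tissue and macrophage lists given further on, so each serpin is given with and without them. The skeletal muscle markers were bright on all arrays. Their summed signal, over 10 genes including the fast myosin heavy chains, lay between 115765 and 138639 in HSALR and between 124775 and 143896 in wild type. In whole muscle, more cells of a type and more RNA per cell cannot be told apart.

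Across the family the serpins showed 2 patterns. Serpinb1a, Serpinb6a and Serpina3n were higher in most or all HSALR samples, and they stayed higher when HSALR 9 and 10 were left out. Serping1 and Serpinh1 lay in the wild-type range in most HSALR samples and Serpinf1 in 5 of 10, and at the deposited scaling the values above that range came from HSALR 8, 9 and 10 alone. In the comparison across all probe sets (limma, false discovery rate 0.05), 3 of the 6 measured genes passed as higher and 0 as lower, by the brightest tested probe set of each gene. Of all 11533 genes tested in the same way, 3.11% passed as higher and 2.31% as lower. Without HSALR 9 and 10 the count was also 3 of 6, against 2.09% of all genes. Because this comparison was the one the genes were chosen on, nothing is read from these counts. The median log2 fold of the 6 genes was 0.49, against 0.05 for all genes tested, and without HSALR 9 and 10 it was 0.33, against 0.01.

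**Figure D1:**
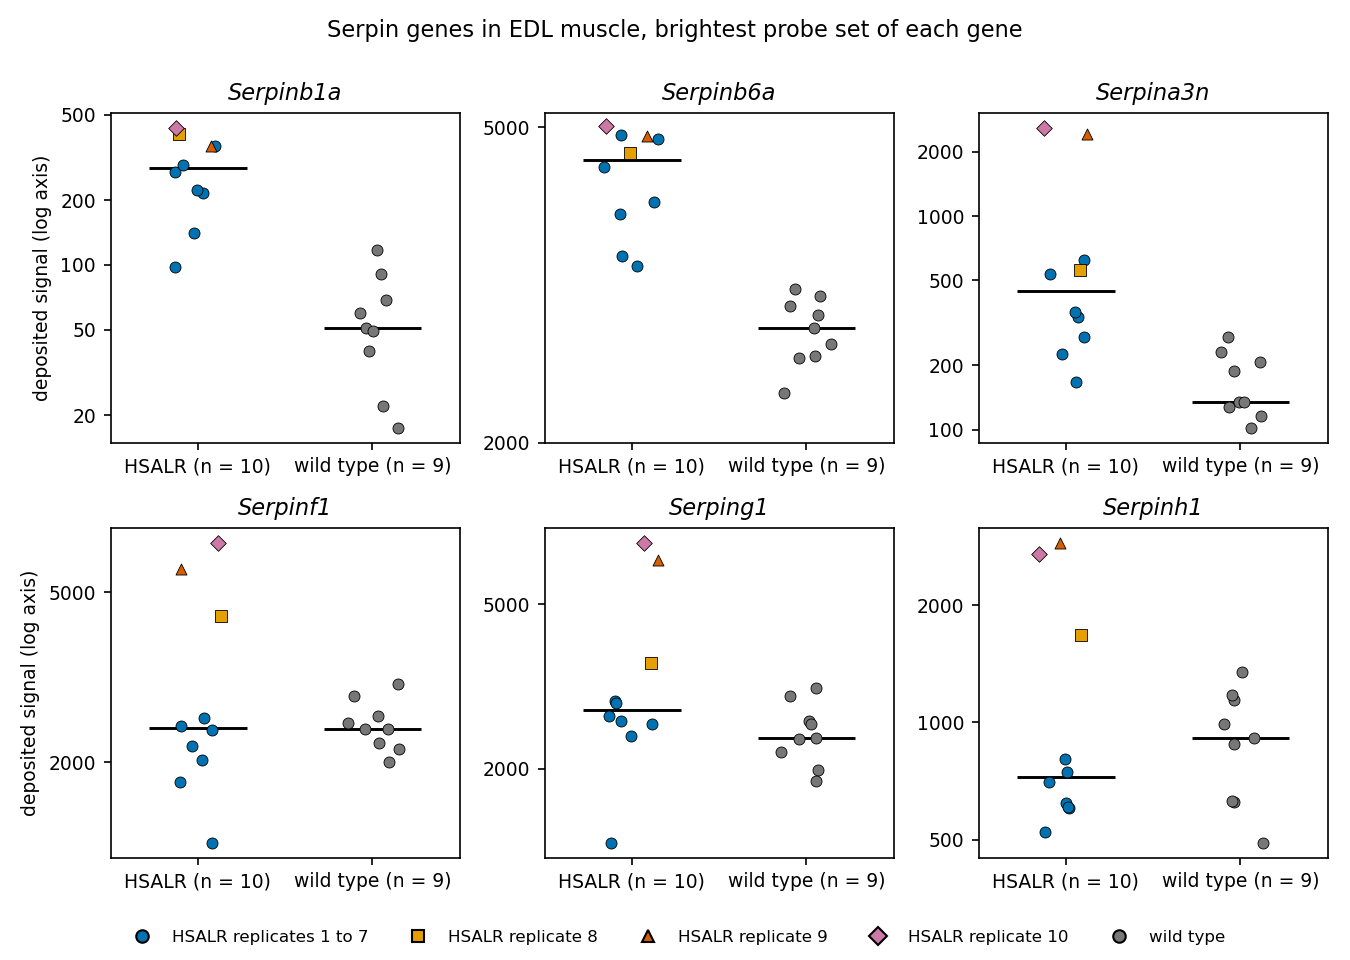
Deposited signal (log axis) of 6 serpin genes by their brightest probe set, with 1 point per sample, HSALR (n = 10) on the left and wild type (n = 9) on the right of each panel, and a bar at the group median. Serpinb6a did not overlap between the groups, and HSALR replicates 8, 9 and 10 were the highest HSALR points of Serpinf1, Serping1 and Serpinh1.

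Serpinb1a is a cytoplasmic inhibitor of neutrophil granule proteases such as neutrophil elastase and cathepsin G. The signal of its brightest probe set (1416318_at) had a lowest value of 97.6, a median of 282 and a highest value of 435 in HSALR samples, against 17.5, 51.0 and 118 in wild-type samples. HSALR 5, the dimmest array, was the 1 HSALR sample that overlapped wild type, and the other 9 exceeded the highest wild-type value. The mean log2 signal was 8.09 ± 0.64 in the 10 HSALR samples (SD), against 6.07 ± 0.65 in the 9 wild-type samples. This is a log2 fold of 2.02 ± 0.26 (SE), or 4.06-fold, on the scale of log2(signal + 16), which understates differences of dim probe sets. HSALR 9 and 10, at 358 and 435, did not stand apart from HSALR 3 at 359 and HSALR 8 at 405, and without them the log2 fold was 1.87 ± 0.27. The SDs of both groups were about as wide as each other, and HSALR 5 and 6, at 97.6 and 141, were nearest to the highest wild-type sample, wild type 4.

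A second probe set of Serpinb1a (1448301_s_at) was below the filter on low values, which left it out of the tested set. Its signal was 32.4 at the lowest, 63.3 at the median and 101 at the highest in HSALR, against 12.9, 23.1 and 37.8 in wild type. In this probe set 8 of 10 HSALR values exceeded the highest wild-type value, and the log2 fold in a fit with no filter was 1.00 ± 0.18. The suffix of this probe set marks oligonucleotides that can match more than 1 transcript, and close relatives of Serpinb1a lie beside it on chromosome 13, so signal of a relative cannot be told apart from Serpinb1a there.

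Serpinb6a inhibits trypsin-like proteases and cathepsin G inside cells and, in the inner ear of mice, is needed for hearing. It had the narrowest spread of the serpins higher in HSALR. Its probe set (1450138_a_at) read 3337 at the lowest, 4550 at the median and 5015 at the highest in HSALR, against 2314, 2792 and 3127 in wild type. The groups did not overlap: each of the 10 HSALR values exceeded each of the 9 wild-type values, which held for 0.434% of all genes tested. The mean log2 signal was 12.07 ± 0.22 in the 10 HSALR samples (SD), against 11.44 ± 0.14 in the 9 wild-type samples. The log2 fold was 0.64 ± 0.10 (SE), or 1.55-fold, and 0.58 ± 0.10 without HSALR 9 and 10, which at 4870 and 5015 were among the highest HSALR samples but close to HSALR 4 at 4885. At the deposited scaling, Serpinb6a was thus the serpin with the smallest fold of the 3 higher genes and the 1 with no overlap between the groups.

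RefSeq (GRCm38.p6) gives Serpinb6a 2 starts on the minus strand of chromosome 13, and the suffix of its probe set marks oligonucleotides shared by transcripts of 1 gene, so the array does not say which start was used. The 250 bases before each start are shown because this gene separated the groups fully at the deposited scaling. The window of the upstream start, at chr13:34002795-34003044, held 1 match to TTCNNNGAA, the letters of the STAT motif, 77 bases before the start. The window of the downstream start, at chr13:33936084-33936333, held 1 CCAAT box 79 bases before the start. The matches are in capitals, read 5′ to 3′ on the gene's strand, and no 2 matches overlapped.
Serpinb6a, upstream start: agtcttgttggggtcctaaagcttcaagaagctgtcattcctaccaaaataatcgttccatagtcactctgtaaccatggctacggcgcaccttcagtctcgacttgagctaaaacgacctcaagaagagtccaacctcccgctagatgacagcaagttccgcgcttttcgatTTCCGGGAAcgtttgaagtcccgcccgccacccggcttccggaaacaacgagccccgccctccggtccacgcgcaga
Serpinb6a, downstream start: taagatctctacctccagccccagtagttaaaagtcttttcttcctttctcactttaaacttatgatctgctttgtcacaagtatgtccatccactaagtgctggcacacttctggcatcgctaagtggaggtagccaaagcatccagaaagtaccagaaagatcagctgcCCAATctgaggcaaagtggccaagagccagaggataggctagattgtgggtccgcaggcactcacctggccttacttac
Among 32851 mouse promoter windows of this length, 7.02% held TTCNNNGAA and 33.8% held CCAAT on either strand. The letters TATAAA were in 12.4% and GAANNTTC, the core of a heat shock element, in 6.69%, and neither window of Serpinb6a held them. A match of letters is a description of the sequence and not a binding site.

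Serpina3n is a secreted acute phase inhibitor, related to human alpha 1-antichymotrypsin, which inhibits cathepsin G and granzyme B. Its signal (1419100_at) was 167 at the lowest, 446 at the median and 2593 at the highest in HSALR, against 102, 134 and 272 in wild type. Of the HSALR samples, 7 of 10 exceeded the highest wild-type value, and all 10 exceeded the wild-type median. The values of HSALR 9 and 10 were 2425 and 2593, while the highest of the other 8 HSALR samples was 621. The log2 mean was 9.08 ± 1.30 in the 10 HSALR samples (SD), against 7.46 ± 0.45 in the 9 wild-type samples. The log2 fold of 1.62 ± 0.40 (SE), or 3.07-fold, was 1.06 ± 0.23, or 2.09-fold, without HSALR 9 and 10, and then 5 of 8 exceeded the highest wild-type value. Those samples therefore carried part of the fold but not all of it. The SD in HSALR was 0.64 without them.

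The 250 bases before the Serpina3n start that the RefSeq promoter table lists, at chr12:104406458-104406707 on the plus strand of GRCm38.p6, are shown because this gene had the widest range between HSALR samples. None of the 4 motifs named for Serpinb6a was found in them, which says only that these letters are not in this window.
Serpina3n: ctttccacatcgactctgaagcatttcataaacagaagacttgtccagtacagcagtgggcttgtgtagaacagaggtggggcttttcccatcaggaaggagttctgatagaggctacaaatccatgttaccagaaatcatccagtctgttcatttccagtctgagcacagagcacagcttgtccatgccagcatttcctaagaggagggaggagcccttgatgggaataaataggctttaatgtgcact
Serpina3n is the last of 23 protein-coding serpin genes on chromosome 12 in the RefSeq order, and Serpinb1a and Serpinb6a are the first and the last of 16 on chromosome 13. Many of these are close copies of each other, and hybridisation of a copy to these probe sets was not tested.

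Serping1 encodes the C1 inhibitor, which blocks the complement proteases C1r and C1s and also plasma kallikrein and factor XII. Its signal (1416625_at) was 1324 at the lowest, 2782 at the median and 7060 at the highest in HSALR, against 1865, 2374 and 3131 in wild type. HSALR 8, 9 and 10 read 3611, 6398 and 7060 and lay above every wild-type sample, HSALR 5 lay below every wild-type sample, and the other 6 lay within the wild-type range. Of the 10 HSALR samples 9 exceeded the wild-type median, and of HSALR 1 to 8 it was 7. The log2 mean was 11.60 ± 0.69 in the 10 HSALR samples (SD), against 11.25 ± 0.25 in the 9 wild-type samples, a log2 fold of 0.35 ± 0.22 (SE). Without HSALR 9 and 10 the log2 fold was 0.07 ± 0.15, smaller than its error. The median of HSALR 9 and 10 was 2.83 times the wild-type median.

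Serpinf1 encodes pigment epithelium-derived factor, a secreted serpin that inhibits no protease and acts on vessels, nerve cells and fat through receptors, among them the lipase Pnpla2. Its brighter probe set (1416168_at) read 1295 at the lowest, 2405 at the median and 6536 at the highest in HSALR, against 1997, 2396 and 3040 in wild type. The medians of the groups were nearly equal, but the HSALR samples were spread to both sides. HSALR 8, 9 and 10 at 4391, 5673 and 6536 lay above all wild-type samples, 2 HSALR samples lay below all of them, and the highest of HSALR 1 to 7 was 2538. The log2 fold was 0.17 ± 0.23 (SE) with all samples and -0.11 ± 0.16 without HSALR 9 and 10. The log2 SD was 0.75 in HSALR (n = 10), 0.50 in HSALR 1 to 8 and 0.19 in wild type (n = 9).

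The second Serpinf1 probe set (1453724_a_at) gave the same order of the high samples. It read 446 at the lowest, 838 at the median and 2657 at the highest in HSALR, against 667, 885 and 1169 in wild type, with a log2 fold of 0.14 ± 0.24 and of -0.16 ± 0.16 without HSALR 9 and 10. A test of the difference between the probe sets of 1 gene, which did not use what chose the genes, gave an adjusted p of 0.985 for Serpinf1 (limma diffSplice). Of 4782 genes with 2 or more tested probe sets, 1.88% passed this test. At the deposited scaling Serpinf1, Serpinh1 and Serping1 had the same 3 highest HSALR samples, and the promoter table held no window of Serping1. The 250 bases before the Serpinf1 start, at chr11:75422624-75422873 on the minus strand of GRCm38.p6 (RefSeq), are shown for this reason. They held 3 CCAAT boxes in capitals, 241, 160 and 148 bases before the start.
Serpinf1: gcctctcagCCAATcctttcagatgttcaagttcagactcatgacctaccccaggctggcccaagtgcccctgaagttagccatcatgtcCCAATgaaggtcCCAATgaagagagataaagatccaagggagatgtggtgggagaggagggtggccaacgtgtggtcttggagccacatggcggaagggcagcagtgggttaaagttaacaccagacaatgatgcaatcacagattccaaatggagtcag

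Serpinh1 encodes HSP47, a heat-inducible chaperone of the endoplasmic reticulum that binds procollagen while it folds. Its brighter probe set (1450843_a_at) read 523 at the lowest, 725 at the median and 2891 at the highest in HSALR, against 492, 911 and 1349 in wild type. HSALR 8, 9 and 10 at 1675, 2891 and 2709 lay above every wild-type sample, and HSALR 1 to 7 reached only 804, below the wild-type median. The log2 mean was 9.93 ± 0.92 in the 10 HSALR samples (SD), against 9.79 ± 0.48 in the 9 wild-type samples. The log2 fold was 0.14 ± 0.30 (SE), and -0.24 ± 0.21 without HSALR 9 and 10, so its sign rested on those samples. A second probe set (1456733_x_at), whose suffix marks oligonucleotides that can bind other transcripts, read 431, 537 and 2615 in HSALR, against 425, 558 and 889 in wild type, with a log2 fold of 0.42 ± 0.31 and of 0.01 ± 0.20 without HSALR 9 and 10. The difference between the probe sets had an adjusted p of 0.909 (limma diffSplice). The 250 bases before the Serpinh1 start, at chr7:99353240-99353489 on the minus strand of GRCm38.p6 (RefSeq), held none of the 4 motifs.
Serpinh1: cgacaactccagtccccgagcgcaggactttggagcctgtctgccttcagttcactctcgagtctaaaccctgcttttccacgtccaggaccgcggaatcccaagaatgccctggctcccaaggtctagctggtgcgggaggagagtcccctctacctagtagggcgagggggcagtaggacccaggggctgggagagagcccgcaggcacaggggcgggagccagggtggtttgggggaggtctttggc

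**Figure D2:**
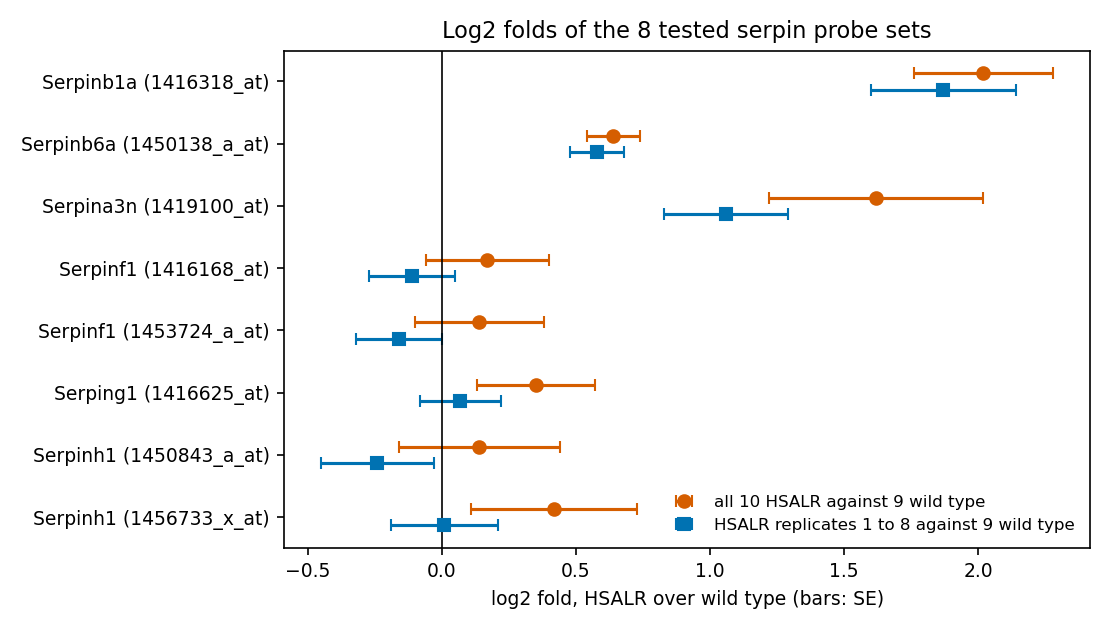
Log2 fold of HSALR over wild type for the 8 tested serpin probe sets, with bars of 1 SE, for all 10 HSALR samples (circles) and for HSALR replicates 1 to 8 (squares), each against 9 wild-type samples. Leaving out HSALR 9 and 10 lowered all 8 folds, least in Serpinb6a (0.64 and 0.58) and most in Serpina3n (1.62 and 1.06).

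The same few samples stood at the ends of most serpin probe sets. HSALR 9 and 10 were both among the 3 highest HSALR samples in 7 of the 8 tested probe sets, and in 5 of the 8 the 3 highest were HSALR 8, 9 and 10. HSALR 5 was the lowest HSALR sample in 6 of the 8. HSALR 8 was also the brightest array and HSALR 5 the dimmest. After quantile normalization, which gives every array the same distribution of signals, HSALR 9 and 10 still had the highest Serpina3n, Serpinf1, Serping1 and Serpinh1 of all samples. HSALR 5 was then still the lowest HSALR sample of Serpinb1a, Serpina3n, Serpinf1 and Serping1, but HSALR 8 no longer exceeded all wild-type samples in every gene. In Serping1 it was 11.53 on the log2 scale, below HSALR 1 at 11.59 and below wild type 8 at 11.63, and in the second Serpinf1 probe set it was 10.22, below wild type 2 at 10.29. In Serpinh1 (1450843_a_at) it was 10.41, above the highest wild-type value of 10.27, and in Serpinf1 (1416168_at) it was 11.81, above 11.71. The log2 folds after it were 1.98 for Serpinb1a, 0.57 for Serpinb6a, 1.58 for Serpina3n, 0.12 for Serpinf1, 0.30 for Serping1 and 0.08 for Serpinh1. With this scaling 6.96% of all genes passed as higher. In Serpinb1a (1416318_at), HSALR 5 was then 7.21, above the highest wild-type value of 7.15, so the groups of that gene did not overlap either. The share of all genes without overlap was not counted at this scaling.

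Some marker lists of other cells moved with the same samples, and others did not. The mean of 16 collagen genes, after quantile normalization and relative to the wild-type mean, was 1.71 and 1.69 in HSALR 9 and 10 on the log2 scale, and lay between -0.54 and 0.46 in HSALR 1 to 8. The mean of 14 macrophage markers was 1.62 in both HSALR 9 and 10 and lay between -0.25 and 0.56 in HSALR 1 to 8. In HSALR 9 and 10 the endothelial mean was -0.095 and -0.134, the neutrophil mean -0.127 and -0.248, and the lymphoid mean -0.124 and -0.21. The summed signal of the macrophage markers was 3621 to 22929 in HSALR, 3621 to 9923 in HSALR 1 to 8 and 4225 to 7176 in wild type, and 2 of the 14, Cd68 and Lgals3, rose, beside 3.11% of all genes. Of the 14, 4 rose after quantile normalization, beside 6.96% of all genes. At an unadjusted p under 0.05, 11 of the 14 were higher. The share of all genes at that unadjusted threshold was not counted. Nothing is therefore read from such counts, here or in the lists that follow. The summed signal of 11 fibroblast markers was 20710 to 58083 in HSALR, at most 39022 in HSALR 1 to 8 and 23259 to 30427 in wild type. Of the 11, 1 rose, Pdgfra, beside 3.11% of all genes. Its log2 fold was 0.74 (limma adjusted p = 0.0276), and 0.53 (adjusted p = 0.0735) without HSALR 9 and 10. The Pdgfra call was also lost with no filter (adjusted p = 0.0589) and in 5 of 19 fits without 1 sample each. The part of these cells in the levels of Serpina3n, Serpinf1, Serping1 and Serpinh1 was not tested. Of the neutrophil markers 5 were bright enough to test and 0 rose or fell, beside 3.11% and 2.31% of all genes. Of the 7 liver markers, such as albumin, 0 passed the filter on low values.

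**Figure D3:**
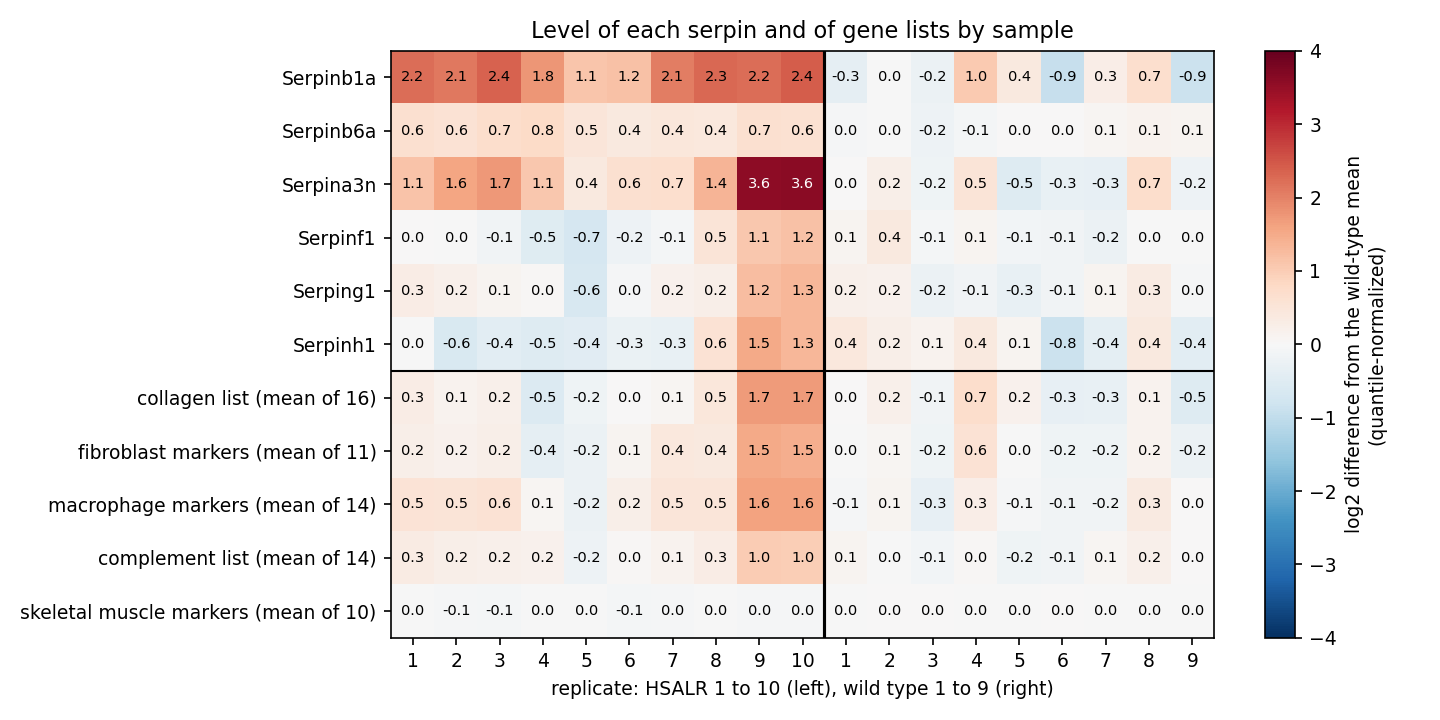
Log2 difference from the wild-type mean (quantile-normalized) for each serpin gene and for the mean of 5 gene lists, with HSALR replicates 1 to 10 on the left and wild-type replicates 1 to 9 on the right. Serpinb1a, Serpinb6a and Serpina3n were above 0 in every HSALR sample. Serpina3n, Serpinf1, Serping1, Serpinh1 and the collagen, fibroblast, macrophage and complement lists were highest in HSALR 9 and 10.

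Relations within a group did not use the difference that chose the genes. Each of the 6 serpins was set against the mean of the collagen list and the mean of the macrophage list, within HSALR 1 to 8 and within the 9 wild-type samples, on quantile-normalized values. These made a family of 24 relations. None passed Benjamini-Hochberg adjustment by Pearson's r or by Spearman's rho (exact permutation tests, 2-sided), and 8 had an unadjusted p under 0.05 by r. The 8 are named next, after their values were seen. Their exact permutation p ran from 0.00475 to 0.0489 for r (adjusted p = 0.0513 to 0.147) and from 0.00456 to 0.115 for rho (adjusted p = 0.0923 to 0.197). Relations outside the 8 had an unadjusted permutation p under 0.05 by rho alone. In HSALR 1 to 8 these were Serpinb1a (rho 0.857, p = 0.0107) and Serping1 (rho 0.833, p = 0.0154) with the collagen list. In wild type it was Serpinf1 with the macrophage list (rho 0.7, p = 0.0433).

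Each r is followed by its value without the 2 samples farthest from the median of the list mean, and rho likewise. In HSALR 1 to 8 (n = 8), Serping1 and the macrophage list had an r of 0.920, then 0.813, but a rho of 0.667, then 0.257. Serpinf1 and the macrophage list had an r of 0.793, then 0.25, and a rho of 0.619, then 0.0857. Those relations thus rested by rho, and in Serpinf1 also by r, on the samples left out. Serpinb1a and the macrophage list had an r of 0.862, then 0.964, and a rho of 0.833, then 0.657. Serpina3n and the macrophage list had an r of 0.704, then 0.695, and a rho of 0.786, then 0.714. Serpinf1 and the collagen list had an r of 0.847, then 0.891, and a rho of 0.905, then 0.829, so these last 3 relations kept most of their size. In the wild-type samples (n = 9), Serpina3n and the macrophage list had the smallest p for r in the family, with an r of 0.841 that dropped to 0.457 and a rho of 0.75 that dropped to 0.464. Serpinb1a and the collagen list had an r of 0.81, then 0.549, and a rho of 0.767, then 0.536. Serpinh1 and the collagen list had an r of 0.759, then 0.801, and a rho of 0.717, then 0.571. Serpinb6a had r between -0.386 and 0.405 in its 4 relations. Without the 2 samples, its r in HSALR was 0.662 with the collagen list and 0.735 with the macrophage list. The rho of Serpinb6a was then 0.771 and 1.0. In wild type its r was then 0.0594 and 0.508, and none of these passed adjustment. With all 10 HSALR samples 11 of 24 relations passed by r, but HSALR 9 and 10 lay apart from the rest in both lists. Among the 11 were wild-type relations, of Serpinb1a and Serpinh1 with the collagen list and of Serpina3n with the macrophage list. Their r and unadjusted p were unchanged, and they passed through the shared adjustment alone (adjusted permutation p = 0.0194, 0.0369 and 0.0134). The others of the 11 were HSALR relations, and their passing rests on HSALR 9 and 10.

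The genes whose sample pattern was most like each serpin were listed as a description, by the correlation of residuals from the group means over 17 samples (HSALR 1 to 8 and wild type) among 11532 other genes. Points share an array's quality, and the top of so many genes is high by selection, so no p is given. Serping1 was most like C1ra, a complement protease, with r = 0.911, then Cygb, a cytoglobin (0.895), and Ccl6, a chemokine (0.879). Over all 19 samples C1ra again came first (0.975), with C1s1, another complement protease, next (0.951). Serpinh1 was most like Gtf2f2, a general transcription factor subunit (0.828), and the type I collagen chains Col1a1 (0.827) and Col1a2 (0.824), and over 19 samples Col1a1 and Col1a2 came first (0.938 and 0.933).

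**Figure D4:**
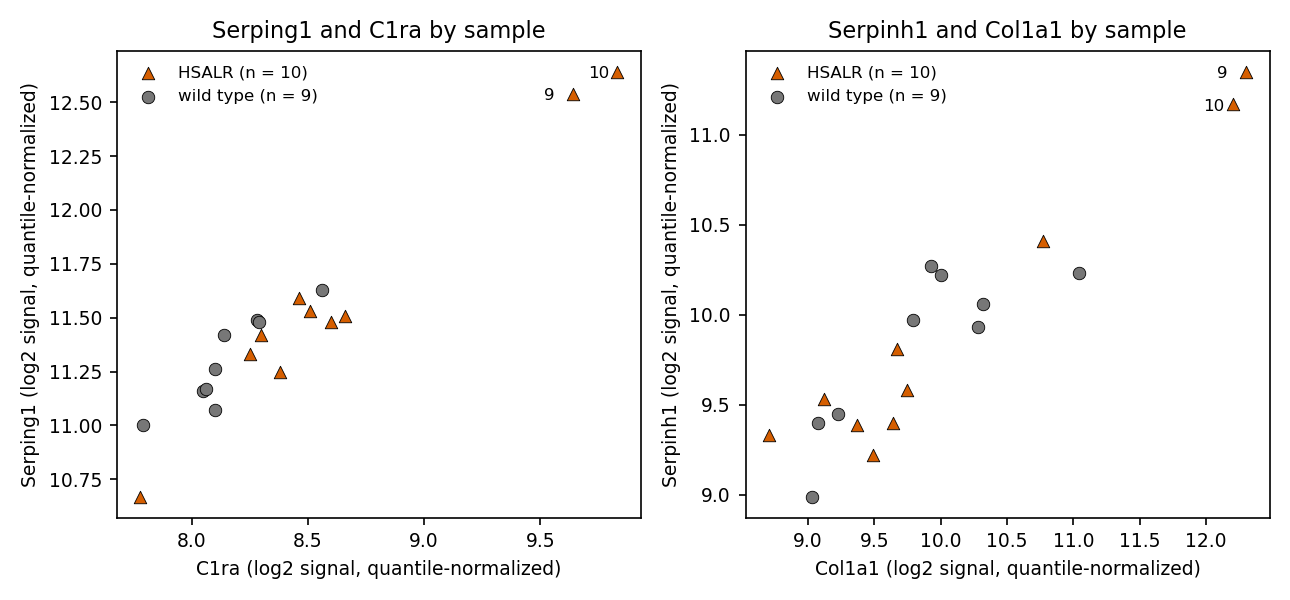
Signal on the log2 scale after quantile normalization of Serping1 against C1ra (left) and of Serpinh1 against Col1a1 (right), with 1 point per sample, HSALR as triangles (n = 10) and wild type as circles (n = 9). HSALR 9 and 10, marked by number, lay above and to the right of all other samples in both panels.

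Serpinf1 was most like Olfml3, a secreted olfactomedin-domain protein (0.881), Gas2, an actin-binding protein (0.879), and Islr, a secreted leucine-rich repeat protein (0.873), and the same 3 came first over 19 samples, with Olfml3 at 0.965. Serpina3n was most like Ms4a6b, a membrane protein of immune cells (0.819), Clec4n, the lectin receptor dectin-2 (0.817), and Rassf5, a Ras effector (0.814). Over 19 samples Lox, which cross-links collagen, came first for Serpina3n at 0.959, and Ms4a6b and Clec4n were not among the first 3. Serpinb1a was most like Igf1, a growth factor (0.828), Bgn, the matrix proteoglycan biglycan (0.825), and Capn2, a calpain protease (0.821), and over 19 samples Capn2 came first (0.791) while Igf1 and Bgn were not among the first 3. Serpinb6a was most like Osbpl10, a lipid-binding protein (0.827), Ropn1, ropporin (0.818), and Cd24a, a surface glycoprotein (0.815), and none of these 3 was among the 3 nearest over 19 samples.

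The other serpin genes were mostly too dim to test. Of 34 with a probe set of their own, 5 were tested, 1 rose and 0 fell, beside 3.11% and 2.31% of all genes. Serpinb6e, a neighbour of Serpinb6a in the chromosome 13 cluster, read 53.5 at the lowest, 107 at the median and 195 at the highest in HSALR, against 18.7, 67.0 and 87.2 in wild type, and 7 of 10 HSALR values exceeded the highest wild-type value. Its log2 fold was 0.71 ± 0.21 (SE, limma adjusted p = 0.0445). The call was lost without HSALR 9 and 10 (log2 fold 0.58, adjusted p = 0.126), and in 14 of 19 fits that left out 1 sample each (adjusted p 0.0219 to 0.0811). Its probe set (1441918_x_at) can bind other transcripts, and whether it reads Serpinb6a was not tested. The alpha 1-antitrypsin genes Serpina1b and Serpina1c had log2 folds of 0.68 ± 0.22 and 0.31 ± 0.16, and Serpinb9 and Serpinb9b of -0.02 and 0.09. None of them passed in the main fit (limma adjusted p = 0.0706, 0.271, 0.972 and 0.815), and they were named after their values were seen.

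Proteases were counted in the lists of granule enzymes and of lysosomal cathepsins. Of the granule serine proteases, targets of Serpinb1a and Serpina3n, 2 of 10 were bright enough to test. Of these 0 rose or fell, beside 3.11% and 2.31% of all genes, with 1 higher at an unadjusted p under 0.05. Of 11 lysosomal cathepsins, most of which are cysteine proteases, 2 rose and 0 fell, beside 3.11% and 2.31% of all genes. Ctsc, the dipeptidyl peptidase that activates granule proteases, had a log2 fold of 0.60 ± 0.13 (SE, limma adjusted p = 0.00968). Its signal had a median of 2006 in HSALR and 1409 in wild type, and 8 of 10 HSALR values exceeded the highest wild-type value. Ctsz had a log2 fold of 0.58 ± 0.16 (adjusted p = 0.0348), which was 0.38 with an adjusted p of 0.0705 without HSALR 9 and 10. The call of Ctsz was also lost with no filter (adjusted p = 0.0695) and with the replicate number as a block (adjusted p = 0.0814). Of 19 fits that left out 1 sample each, 10 lost the call of Ctsz (adjusted p up to 0.0664) and 0 that of Ctsc. The median log2 fold was 0.60 for the 2 granule proteases and 0.20 for the 11 cathepsins, against 0.05 for all genes.

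In the plasminogen and coagulation list, which holds targets of Serpine2 and Serping1, 1 of 9 tested genes rose, beside 3.11% of all genes, 0 fell and the median log2 fold was 0.50. Of the 9, 5 were higher at an unadjusted p under 0.05, and 3 rose after quantile normalization, beside 6.96% of all genes. The gene that rose was F2r, the thrombin receptor PAR1. It read 942 at the lowest, 1542 at the median and 5862 at the highest in HSALR, against 556, 687 and 1295 in wild type. The log2 fold of F2r was 1.33 ± 0.27 (SE, limma adjusted p = 0.00383), and 0.97 without HSALR 9 and 10 (adjusted p = 0.000916), in which F2r reached 4245 and 5862. In the complement list, the system that Serping1 restrains, 1 of 14 tested genes rose and 0 fell, beside 3.11% and 2.31% of all genes. In that list 5 genes were higher at an unadjusted p under 0.05, and the median log2 fold was 0.34, or 0.18 without HSALR 9 and 10. The gene that rose was Cd55, a membrane inhibitor of complement (log2 fold 0.48 ± 0.13, limma adjusted p = 0.0281, and 0.44 with an adjusted p of 0.0835 without HSALR 9 and 10). The Cd55 call was also lost with no filter (adjusted p = 0.0567). Of 19 fits that left out 1 sample each, 7 lost the call of Cd55 (adjusted p up to 0.0572) and 0 that of F2r.

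The collagens and the enzymes that process them, the surroundings of Serpinh1, held 0 genes past the threshold of 16 and 16 tested. Of all genes, 3.11% passed as higher and 2.31% as lower. After quantile normalization 1 gene of each of these lists rose, beside 6.96% of all genes. Among the 16 collagens 3 had an unadjusted p under 0.05 and were higher, and the median log2 fold was 0.41, or 0.06 without HSALR 9 and 10. Collagen processing genes had a median log2 fold of 0.24, or -0.01 without HSALR 9 and 10, with 2 higher at an unadjusted p under 0.05. Of 11 heat shock genes 1 rose and 0 fell, beside 3.11% and 2.31% of all genes. The gene that rose was Hspb1, a small heat shock protein of muscle, with a log2 fold of 0.42 ± 0.11 (SE, limma adjusted p = 0.0254). Its median signal was 6175 in HSALR against 5103 in wild type. The Hspb1 call was lost without wild type 6, 7 or 9 (adjusted p = 0.0519, 0.0566 and 0.0532). It was also lost with no filter (adjusted p = 0.0501) and with the control probe sets' 3'/5' ratio in the model (adjusted p = 0.0508). Of 5 genes for receptors or partners of Serpinf1, 0 passed, beside the same shares of all genes. Of the 5, 2 were higher at an unadjusted p under 0.05, and the median log2 fold was 0.17. After quantile normalization 1 of the 5 rose, beside 6.96% of all genes. Of 13 acute phase and STAT3 pathway genes, the surroundings of Serpina3n, 0 passed, beside 3.11% and 2.31% of all genes. Of the 13, 5 were higher at an unadjusted p under 0.05. The median log2 fold was 0.28, or 0.10 without HSALR 9 and 10. The mean of the 13, after quantile normalization and relative to wild type, was 1.225 and 1.22 in HSALR 9 and 10. That mean lay between -0.39 and 0.65 in HSALR 1 to 8.

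Of 12 tested inhibitors of other families 1 rose and 1 fell, beside 3.11% and 2.31% of all genes, and the median log2 fold was 0.09. Without HSALR 9 and 10, 0 rose and 1 fell. Cstb, the cytosolic cathepsin inhibitor cystatin B, had a log2 fold of 0.64 ± 0.17 (SE, limma adjusted p = 0.0294), and 0.44 (adjusted p = 0.0635) without HSALR 9 and 10. The Cstb call was also lost without HSALR 3, HSALR 9, or wild type 3, 7 or 9 (adjusted p up to 0.0594). With no filter (adjusted p = 0.0612) and with the replicate number as a block (adjusted p = 0.102) Cstb did not pass either. Cst6, the secreted cystatin E/M, fell to a median signal of 182 in HSALR, against 318 in wild type, and 8 of 10 HSALR values were under the lowest wild-type value. Its log2 fold was -0.58 ± 0.12 (SE, limma adjusted p = 0.00364), and -0.55 (adjusted p = 0.014) without HSALR 9 and 10, at 171 and 189. In Cst6 those samples did not stand apart.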

How the data were processed

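RNA of 10 HSALR and 9 wild-type EDL samples was labelled with biotin and hybridised to 1-colour Affymetrix arrays, per the labels' protocols. The deposited intensities are linear signals of 45101 probe sets, made by the authors with GCOS 1.4, per the submitters' processing notes, with algorithm, scaling target and genome build not given in the sources used here. Values were used as log2(value + 16). After 64 control probe sets were left out, the 22519 probe sets with a mean at or above the median (6.09) were tested. Names came from the platform annotation (34945 probe sets with 1 symbol, 932 with several, which were not named, and 9160 with no name here), and a gene was read by its brightest tested probe set. Groups were compared with limma 3.58.1 in R 4.3.3, 2-sided, with Benjamini-Hochberg adjustment over all tested probe sets. The script was tested on simulated data.

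The members, the gene lists and the tests were chosen with earlier results of these data known. The text names all members, the other serpins past the threshold, up to 4 genes past it per list, the 3 genes most alike to each member, and relations that passed. None did, and the relations and the other serpins short of the threshold that are named were chosen after their values were seen. Promoters came from a table of RefSeq sequences (GRCm38.p6), which held 5 of the 7 members. Alternatives were other pseudocounts, filters, scalings and variance models, array weights, a 3'/5' covariate, a replicate block, and fits without single samples or without HSALR 9 and 10. Figures were drawn with matplotlib 3.10.9.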

Additional observations from a re-analysis of the deposited data

How the results depend on the processing

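The count of probe sets past the threshold was 1140 (645 higher, 495 lower), and it moved with the scaling and the model. It was 3343 after quantile normalization (1457 higher, 1886 lower), 2345 with each array centred on its median (1051 and 1294), 2878 with array weights (2278 and 600), 2169 with the control probe sets' 3'/5' ratio in the model (1705 and 464) and 2468 without HSALR 9 and 10 after quantile normalization (1160 and 1308). Without single samples it ran from 858 to 2067, the highest without HSALR 5. The cause was not tested. As a description with no test, over the alternatives other than single samples the log2 fold ran from 1.46 to 2.38 for Serpinb1a, from 0.55 to 0.69 for Serpinb6a and from 1.06 to 2.06 for Serpina3n.

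Replicate numbers were not used as pairs in the main fit. Deviations of same-numbered samples correlated between -0.237 and 0.13, 3 of 9 pairs were over 0.1, and 3 HSALR samples correlated best with their own number. Whether same-numbered samples were alike beyond chance was not tested. With the replicate number as a block, which leaves out HSALR 10, 716 probe sets passed (409 higher, 307 lower), 0 other serpins passed, and the log2 fold was -0.02 for Serpinf1 (1453724_a_at) and -0.02 for Serpinh1 (1450843_a_at).

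The sign turned in both probe sets of Serpinf1 and in 1 of Serpinh1, while the other (1456733_x_at) ran from 0.01 to 0.89. Without HSALR 9 and 10, as deposited and after quantile normalization, Serpinf1 had -0.11 and -0.13 (1416168_at) and -0.16 in both (1453724_a_at), and Serpinh1 (1450843_a_at) had -0.24 and -0.25. Without single samples, Serpinf1 (1453724_a_at) ran from -0.02 to 0.26 and Serpinh1 (1450843_a_at) from -0.03 to 0.24. Serpinb9 was 0.06 with array weights and 0.03 with the covariate, and ran from -0.11 to 0.06, and Serpinb9b was -0.01 with the covariate and ran from -0.01 to 0.19.

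The other serpins past the threshold (1) were 0 with a pseudocount of 1, no filter, the 11260 brightest probe sets or without HSALR 9 and 10 (either scaling). They were 2 with quantile normalization, median centring or the covariate, and 0 to 2 without single samples. The gene that passed also changed. Serpina1b passed with quantile normalization (limma adjusted p = 0.0396), median centring (0.0454), array weights (0.0327) and the covariate (0.0339), and without some single samples (from 0.0257). With array weights Serpinb6e did not pass (adjusted p = 0.0615). Of the 24 relations, 0 passed in the main setting, 9 with the scaling as deposited, 2 with median centring and 11 with all 10 HSALR samples. Dim probe sets such as the second of Serpinb1a lie near the floor of the scale, where folds are understated.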

Other observations

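Of 3 markers of fat cells tested in HSALR muscle, 2 rose and 0 fell, beside 3.11% and 2.31% of all genes, and the median log2 fold was 0.69, against 0.05 for all genes. Adipoq, which encodes the fat hormone adiponectin, had a signal of 38.8 at the lowest, 321 at the median and 656 at the highest in HSALR, against 35.1, 57.0 and 135 in wild type, a log2 fold of 1.58 ± 0.41 (SE, limma adjusted p = 0.0237). HSALR 9 and 10 read 158 and 428, and the highest value came from the other 8 HSALR samples, unlike the connective tissue lists. Retn, which encodes resistin, read 87.3, 136 and 211 in HSALR, against 40.9, 83.7 and 108 in wild type, a log2 fold of 0.69 ± 0.16 (SE, limma adjusted p = 0.0146). In both genes 7 of 10 HSALR values exceeded the highest wild-type value, and both stayed past the threshold without HSALR 9 and 10 (adjusted p = 0.0453 and 0.0299). The Adipoq call was lost with no filter (0.0517) and with the replicate number as a block (0.0557), and the Retn call with that block (0.0682).

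Among the macrophage and smooth muscle markers, Cd68, a lysosomal protein of macrophages, had a median signal of 240 in HSALR and 125 in wild type (log2 fold 1.00, limma adjusted p = 0.0133, and 0.76 with an adjusted p of 0.033 without HSALR 9 and 10). Lgals3, the lectin galectin-3, had a median of 531 in HSALR and 265 in wild type, and reached 2081 and 2993 in HSALR 9 and 10. Its log2 fold was 1.27 (adjusted p = 0.0347), and 0.79 (adjusted p = 0.0297) without HSALR 9 and 10. The Lgals3 call was lost with no filter (adjusted p = 0.0717) and with a trend and robust variance model (adjusted p = 0.0642). It was also lost in 9 of 19 fits without 1 sample each. Tagln, an actin-binding protein of smooth muscle, had a log2 fold of 0.52 (adjusted p = 0.0397), which was 0.42 with an adjusted p of 0.125 without HSALR 9 and 10, and the call was lost in 13 of the 19 fits. Also tested were 9 endothelial, 7 tendon, 6 slow muscle, 4 Schwann cell, 2 mast cell, 2 lymphoid, 1 red cell and 1 satellite cell markers. Of these, 0 rose and 0 fell, beside 3.11% and 2.31% of all genes. After quantile normalization and relative to wild type, the tendon mean was 0.922 and 1.222 in HSALR 9 and 10. The mast cell mean was 1.121 and 0.948 there. The endothelial, slow muscle, lymphoid and red cell means were below 0 in both samples, and the Schwann and satellite cell means differed in sign. The satellite cell marker passed as higher without HSALR 9 and 10 and after quantile normalization, and 1 endothelial marker passed as lower after quantile normalization.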
